A study of Mus musculus with 56 samples.

Results

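Cyp1a1, Cyp1a2 and Cyp1b1, which together form the cytochrome P450 family 1 studied here, were followed across the lung, liver and forestomach of Muta Mouse males gavaged with chrysene, a polycyclic aromatic hydrocarbon. The members were chosen by gene symbol, from the RefSeq accession of each probe, and were 3 of the 20018 genes named on the array. Each had 1 probe, so that no second probe could be set beside it. Adult males, about 14 weeks old, were gavaged daily for 28 days. Vehicle controls (D0) received olive oil alone, and the dosed groups received chrysene in that oil, with daily doses per kg of body weight of 17.5 mg (D1), 50 mg (D2) and 150 mg (D3), and tissues were taken 72 h after the last gavage. From vehicle to the highest dose, lung was measured in 5, 5, 3 and 5 mice, and liver and forestomach each in 5, 5, 4 and 5, with 1 array per mouse and tissue. All mice, the vehicle controls included, carried the lacZ reporter transgene of the strain and were gavaged with the oil. Muta Mouse is a mutation-scoring strain, only males were used, and the lung and liver samples were pieces of 1 lobe each. The 3 tissues of a mouse carry the same mouse number below.

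The CYP1 enzymes are monooxygenases of the endoplasmic reticulum that oxidise flat aromatic molecules. CYP1A1 and CYP1B1 act on such hydrocarbons in tissues outside the liver, where they can both open the route to excretion and form DNA-binding diol epoxides, and CYP1A2 is a constitutive enzyme of the liver that oxidises arylamines and caffeine. Transcription of the family is driven by the aryl hydrocarbon receptor (AhR), a ligand-activated factor that pairs with ARNT and binds the core letters GCGTG, and that is held back by its own target, the AhR repressor (AHRR).

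The promoters of the 3 members are shown because these letters differ among them. The sequences are from RefSeq (GRCm38.p6), run 5′ to 3′ on the strand of the gene and span 300 bases, most of them before the start of the gene. Capitals mark the core letters GCGTG, read on either strand (CACGC where they lie on the other strand), and the TATA box letters TATAAA. The Cyp1a1 promoter lies at chr9:57697363-57697662 on the plus strand, that of Cyp1a2 at chr9:57683606-57683905 on the minus strand, and that of Cyp1b1 at chr17:79715012-79715311 on the minus strand.
Cyp1a1: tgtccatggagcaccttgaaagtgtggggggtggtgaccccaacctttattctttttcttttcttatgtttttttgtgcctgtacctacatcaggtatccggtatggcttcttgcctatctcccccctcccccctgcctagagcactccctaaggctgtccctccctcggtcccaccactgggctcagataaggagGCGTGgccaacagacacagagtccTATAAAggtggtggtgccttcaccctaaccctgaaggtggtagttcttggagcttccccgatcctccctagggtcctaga
Cyp1a2: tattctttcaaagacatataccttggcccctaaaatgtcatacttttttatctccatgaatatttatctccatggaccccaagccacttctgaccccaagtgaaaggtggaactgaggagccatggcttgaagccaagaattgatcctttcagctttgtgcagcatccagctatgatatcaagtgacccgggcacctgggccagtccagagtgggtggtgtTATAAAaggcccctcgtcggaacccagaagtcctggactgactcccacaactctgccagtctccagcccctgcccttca
Cyp1b1: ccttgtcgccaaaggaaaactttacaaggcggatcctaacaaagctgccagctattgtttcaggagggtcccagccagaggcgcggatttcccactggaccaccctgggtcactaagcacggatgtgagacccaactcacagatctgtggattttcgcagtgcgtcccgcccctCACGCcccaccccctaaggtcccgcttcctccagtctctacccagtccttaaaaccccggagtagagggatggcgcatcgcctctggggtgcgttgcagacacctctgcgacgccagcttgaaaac
Cyp1a1 held GCGTG at 54 bases before the start and TATAAA at 30 bases before it. Cyp1a2 held TATAAA at 29 bases before the start and no GCGTG. Cyp1b1 held GCGTG on its other strand at 76 bases before the start and no TATAAA. Over all promoters of the same length, 32.4% of 32851 held GCGTG and 13.6% held TATAAA on either strand, so that neither is rare. A match describes these letters in this window only.

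Values are log2 ratios of the sample's RNA (Cy5) over a universal mouse reference RNA (Cy3) on the same array after LOWESS normalisation, so that a value of 0 is the usual balance of the channels at that brightness and not equal raw signal. The share of spots with a Cy5 signal well above background was lowest in forestomach, at 18.9% to 51.7% of spots per array, against 34.5% to 46.4% in liver and 49.0% to 56.7% in lung. Markers of the labelled tissues were found in those tissues, though not in them alone. The alveolar type 2 list was well above background at 5 of 5 genes on most lung arrays, hepatocyte genes at 5 of 5 in liver and keratinocyte genes at 5 of 5 in forestomach. The forestomach arrays also carried the glandular stomach list, whose mean log2 ratio ran from 0.43 to 7.19 between mice. Of the hepatocyte genes, 4 of 5 were also well above background on most forestomach arrays, with list means of 0.05 to 3.65. So were 2 of the 3 named club cell genes, with list means of 3.07 to 5.31. Lung mice 17 and 19, both D3, stood apart by skeletal muscle list means of 5.47 and 5.74, against -0.87 to 0.49 in the other lungs, and by keratinocyte list means of 3.82 and 4.35, against -0.83 to -0.51. None of the 14 marker lists separated the D0 from the dosed arrays in any tissue. In whole tissue, fewer cells of a type and less RNA per cell cannot be told apart. On 50 of the 56 arrays the column on the slide equalled the dose step plus 1, and in lung all 5 D0 arrays and 0 dosed arrays lay in column 1, so that column and dosing cannot be told apart there.

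The first question was whether the family responded to chrysene in each tissue. Lung Cyp1a1 was lower in dosed than in vehicle mice, the liver's Cyp1a2 differed from vehicle by little, with a narrow interval, and forestomach Cyp1a1 was high in 2 dosed mice and near background in most others. With limma, 0 of the 2 members tested in lung, 0 of 3 in liver and 0 of 2 in forestomach passed both limits at any dose, for the mean of doses, for the trend over dose step or for D3 against D1. The limits were an adjusted p (Benjamini-Hochberg, across every probe tested in that tissue) no higher than 0.05 and a fold of 1.5 or more. Few probes passed in all. In lung 0% of probes passed at D1 and D2, 0.127% at D3, 0.00318% for the mean of doses, 0.168% for the trend and 0.00318% for D3 against D1. In liver 0% passed in each contrast. In forestomach 0.00727% passed at D3, 0.04% for the trend and 0% in the others. At an unadjusted p of at most 0.05, 2 members were found in lung at D1, where 5.88% of all probes were, 1 at D2 (6.12%), 1 at D3 (16.1%) and 2 for the mean of doses (9.86%). The trend found 1 member (17.3%) and D3 against D1 found 0 (13.1%). In liver 0 of 3 members did, where the share of all probes was 3.61%, 3.78% and 4.78% from D1 to D3, 4.31% for the mean of doses, 5.41% for the trend and 3.79% for D3 against D1. In forestomach 0 of 2 did, against 4.17%, 7.54%, 9.24%, 9.25%, 9.18% and 1.77% of all probes in the same order.

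In lung, Cyp1a1 had log2 ratios of 1.21, 1.12, 2.99, 1.24 and 1.75 in D0 mice 1 to 5. At D1 the values were 0.46, 0.43, 0.30, 0.01 and 0.81 in mice 6 to 10. At D2 they were 0.96, 0.65 and 0.40 in mice 12, 13 and 15, and at D3 0.78, 0.75, 0.75, 0.15 and 0.88 in mice 16 to 20. Every one of the 13 dosed lungs lay below every one of the 5 vehicle lungs, and mouse 3 lay far above the other vehicle mice. Such a separation was met by 33 of the 31496 probes tested in lung (0.105%). The vehicle mean was 1.66 ± 0.78 (SD, n = 5), and the dosed means were 0.40 ± 0.29 (D1, n = 5), 0.67 ± 0.28 (D2, n = 3) and 0.66 ± 0.29 (D3, n = 5).

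The lung Cyp1a1 difference did not pass the adjustment over all probes. The mean of the 3 doses differed from D0 by -1.08 on the log2 scale (SE 0.23, 95% interval -1.58 to -0.59, limma unadjusted p 0.000226, adjusted p 0.0948), lower in 13 of 13 dosed mice. This was the 7th most negative of the 31496 values. By dose, the log2 change was -1.26 (D1, SE 0.28), -0.99 (D2, SE 0.32) and -0.998 (D3, SE 0.28), with limma adjusted p values of 0.615, 0.626 and 0.128. A larger difference at the higher dose was not found, as D3 against D1 gave 0.26 (95% interval -0.33 to 0.85, limma adjusted p 0.712). For this single probe, the 2-sided exact permutation test of dosed against D0 lungs gave p = 0.000117, the smallest that its 8568 splits allow, and D3 against D0 gave an exact permutation p = 0.00794, the smallest that 252 splits allow. These are 2 of 14 such tests over members and tissues, and they were not adjusted over all probes.

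**Figure D1:**
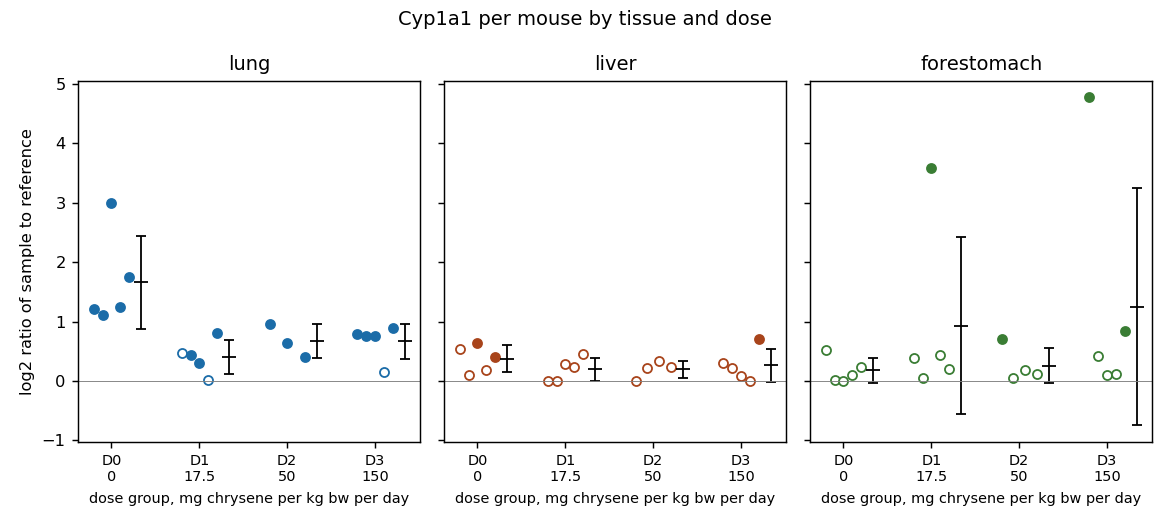
Cyp1a1 log2 ratio (Cy5 over Cy3, vertical axis) of each mouse by dose group in lung, liver and forestomach, with filled points for Cy5 well above background, open points for the rest and the mean ± SD beside each group. The lung D0 points lie at 1.12 to 2.99, above all dosed lungs (0.01 to 0.96), and 2 forestomach points stand at 3.58 and 4.77.

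The lung Cyp1a1 signal was dim. Its Cy5 intensity ran from 90 to 472 and was well above background on 15 of 18 arrays, the exceptions being mice 6, 9 and 19, all dosed. The reference signal was well above background on 0 of 18 arrays, so the denominator of these ratios is not a measured level of Cyp1a1. The difference lay in the sample channel: between D0 and dosed lungs, log2 Cy5 differed by -1.05 and log2 Cy3 by 0.11, and 12 of 13 dosed lungs lay below all vehicle lungs in Cy5 alone. Dosed lungs were lower on each of the 3 slides, by -0.61, -0.87 and -1.51 on the log2 scale, with 2, 1 and 2 D0 arrays. Without mouse 3 the value was -0.75 (limma adjusted p 0.0737). Without mice 17 and 19 it was -1.04 (limma adjusted p 0.117).

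**Figure D2:**
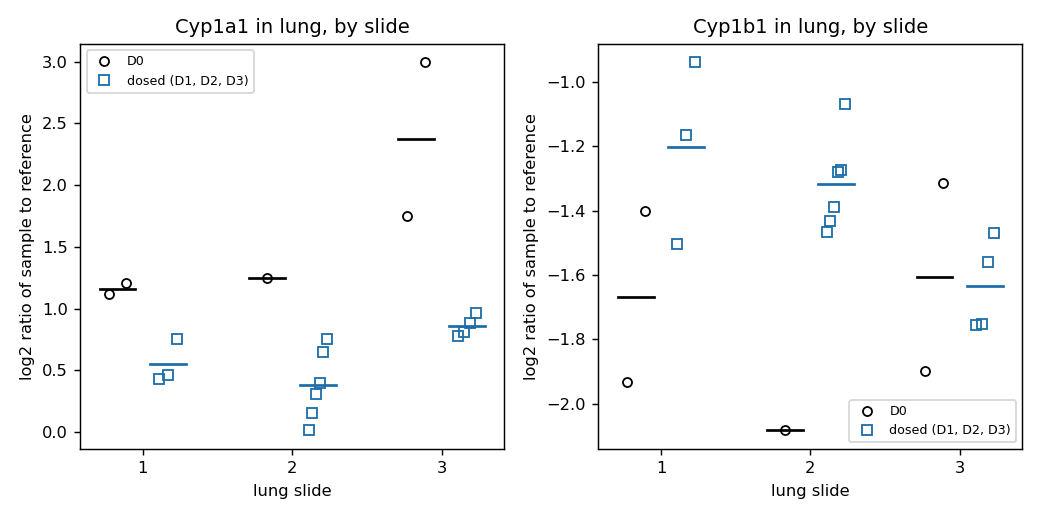
Lung log2 ratios of Cyp1a1 and Cyp1b1 (vertical axis) by microarray slide, with circles for D0 mice, squares for dosed mice and bars for the means. Cyp1a1 of dosed mice is lower on each slide (-0.61, -0.87 and -1.51), whereas the Cyp1b1 difference is 0.46, 0.76 and -0.03.

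Lung Cyp1b1, the member typical of stromal and vascular cells, was well above background on all 18 arrays. Its log2 ratios were -1.93, -1.40, -1.90, -2.08 and -1.31 in D0 mice 1 to 5, and -1.16, -1.50, -1.07, -1.27 and -1.56 in D1 mice 6 to 10. D2 mice 12, 13 and 15 had -1.75, -1.39 and -1.43. D3 mice 16 to 20 had -1.47, -0.94, -1.47, -1.28 and -1.75. The groups overlapped, with 5 of 13 dosed lungs above all vehicle lungs. The vehicle mean was -1.73 ± 0.34 (SD, n = 5), and from D1 to D3 the means were -1.31 ± 0.21 (n = 5), -1.52 ± 0.20 (n = 3) and -1.38 ± 0.30 (n = 5).

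Cyp1b1 and Cyp1a1 differed from vehicle in opposite directions in lung, and the Cyp1b1 difference was the smaller. The mean of doses differed from D0 by 0.32 (SE 0.14, 95% interval 0.03 to 0.61, limma unadjusted p 0.0330, adjusted p 0.453), with an exact permutation p = 0.0316 for the single probe. At D1 the log2 change was 0.41 (SE 0.16, limma adjusted p 0.832) and at D3 0.34 (SE 0.16, adjusted p 0.313). For the mean of doses on slide 3 it was -0.03, so the direction did not hold within every slide. Without mice 17 and 19 the D3 value was 0.16. Cyp1a2 was well above background on 0 of 18 lung arrays and was not tested there, with ratios of -0.06 to 0.21 that describe background in both channels.

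In liver, Cyp1a2 was well above background on all 19 arrays. Its log2 ratios were 4.55, 4.54, 4.51, 4.59 and 4.33 in D0 mice 1 to 5 and 4.62, 4.60, 4.56, 4.54 and 4.41 in D1 mice 6 to 10. At D2 they were 4.65, 4.77, 4.32 and 4.38 in mice 11, 12, 13 and 15, and at D3 4.60, 4.65, 4.44, 4.48 and 4.34 in mice 16 to 20. All 4 groups covered nearly the same range. The means were 4.50 ± 0.10 (SD, n = 5), 4.55 ± 0.08 (n = 5), 4.53 ± 0.22 (n = 4) and 4.50 ± 0.12 (n = 5).

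The liver Cyp1a2 difference between dosed and vehicle mice was 0.02 on the log2 scale (SE 0.07, 95% interval -0.13 to 0.17, exact permutation p = 0.754), and at D3 it was -0.00 (SE 0.09, 95% interval -0.18 to 0.18). These intervals are those of the ratio. The Cy3 signal of this probe was also raised on liver arrays, as given with the tissue levels, and its part in them was not tested. In Cy5 alone the liver Cyp1a2 difference was 0.10 (SE 0.11) for the mean of doses and 0.05 (SE 0.13) at D3. The Cy5 and Cy3 signals differed between dosed and vehicle livers by 0.09 and 0.06 on the log2 scale. Between vehicle livers the SD was 0.21 in Cy5 and 0.16 in Cy3, both wider than the 0.10 of the ratio.

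Cyp1a1 and Cyp1b1 were close to background in liver. Cyp1a1 was well above background on 3 of 19 liver arrays (D0 mice 3 and 5 and D3 mouse 20), with a vehicle mean of 0.37 ± 0.23 (SD, n = 5) and dosed means of 0.19 ± 0.20 (D1, n = 5), 0.19 ± 0.14 (D2, n = 4) and 0.26 ± 0.28 (D3, n = 5). No D1 or D2 array was above background and only 2 of the 5 D0 arrays were, so no difference between them is given. Raw Cy5 was 77.5 to 97 at D0, 73 to 96 at D1 and 78 to 89 at D2. A bound is given below only where all arrays of the brighter group and none of the dimmer group were above background. Such a bound sets the mean Cy5 of the brighter group against, on each array of the dimmer group, the faintest signal still called above background or the probe's own signal, whichever was higher. It was computed after loess with quantile scaling of mean brightness and with Cy5 quantile-scaled alone, and the smaller of both is given throughout. It is open to dye bias. Cyp1b1 was well above background on 9 of 19 liver arrays, with means of -2.27 ± 0.32, -2.44 ± 0.16, -2.27 ± 0.18 and -2.25 ± 0.12 from D0 to D3 and a difference of -0.06 (95% interval -0.27 to 0.16, exact permutation p = 0.597).

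**Figure D3:**
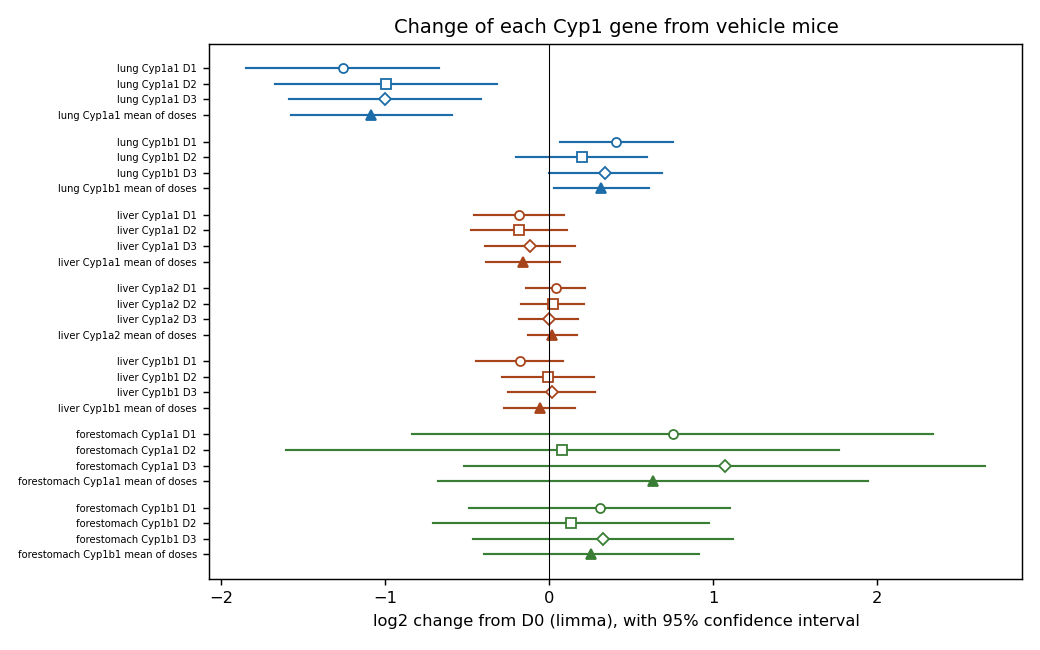
Log2 change of each member against D0 from limma (horizontal axis, points with 95% intervals) by tissue and dose. The lung Cyp1a1 intervals lie below 0 at D1 (-1.84 to -0.67) and D3 (-1.58 to -0.41), those of liver Cyp1a2 stay close to 0 (-0.18 to 0.18 at D3). Those of forestomach Cyp1a1 are set against a D0 level not above background and are drawn for completeness.

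In forestomach, the squamous part of the stomach where gavaged material arrives, Cyp1a1 was well above background on 4 of 19 arrays, all from dosed mice. D0 mice 1 to 5 had log2 ratios of 0.53, 0.02, 0.01, 0.10 and 0.23. D1 mice 6 to 10 had 0.39, 0.06, 3.58, 0.44 and 0.19, and D2 mice 11, 12, 13 and 15 had 0.70, 0.04, 0.18 and 0.11. D3 mice 16 to 20 had 4.77, 0.42, 0.11, 0.11 and 0.83. Mouse 16 (D3) and mouse 8 (D1) thus stood far above the other 17 mice, of which the highest was at 0.83. Mouse 11 (D2, 0.70) and mouse 20 (D3, 0.83) also lay above all vehicle mice and were well above background. The rest of the dosed mice overlapped the vehicle mice.

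The group means of forestomach Cyp1a1 followed those 2 mice. They were 0.18 ± 0.21 (SD, n = 5) in vehicle mice, 0.93 ± 1.49 for D1 (n = 5), 0.26 ± 0.30 for D2 (n = 4) and 1.25 ± 1.99 for D3 (n = 5). Since the probe was kept for testing only through its dosed arrays, no test of dosed against D0 mice is given, and it is among the 2 forestomach members counted above for completeness. No bound on a group fold is given either, since only 2 of 5 D3 and 1 of 5 D1 arrays were above background. Raw Cy5 was 524 in mouse 16 and 279 in mouse 8, against 68 to 82 in D0 mice. Cyp1a2 was well above background on 0 of 19 forestomach arrays, at ratios of -0.10 to 0.40.

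Forestomach Cyp1b1 was well above background on 18 of 19 arrays, the exception being D0 mouse 4. D0 mice 1 to 5 had log2 ratios of -0.22, -1.998, -0.37, -0.43 and -0.37. D1 mice 6 to 10 had -0.84, -0.45, 0.32, -0.26 and -0.62, and D2 mice 11, 12, 13 and 15 had -0.29, -1.49, -0.06 and -0.33. D3 mice 16 to 20 had 0.77, -0.25, -0.52, -1.07 and -0.67. The groups overlapped, and mice 16 and 8 were again the highest and the second highest of the 19, above -0.06 in the highest of the others.

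The vehicle mean of forestomach Cyp1b1 was -0.68 ± 0.74 (SD, n = 5), and the dosed means were -0.37 ± 0.44 (D1, n = 5), -0.54 ± 0.65 (D2, n = 4) and -0.35 ± 0.69 (D3, n = 5). Dosed mice differed by 0.26 (SE 0.31, 95% interval -0.40 to 0.91, limma adjusted p 0.953, exact permutation p = 0.415). Without D0 mouse 2 the value turned to -0.07. The lowest Cyp1b1 ratios, in mice 2, 12 and 19, came from the 3 forestomachs with the highest glandular stomach list means, at 7.01, 7.07 and 7.19, and all of those arrays lay on slide 1. The part of glandular tissue or of the slide in these ratios was not tested.

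**Figure D4:**
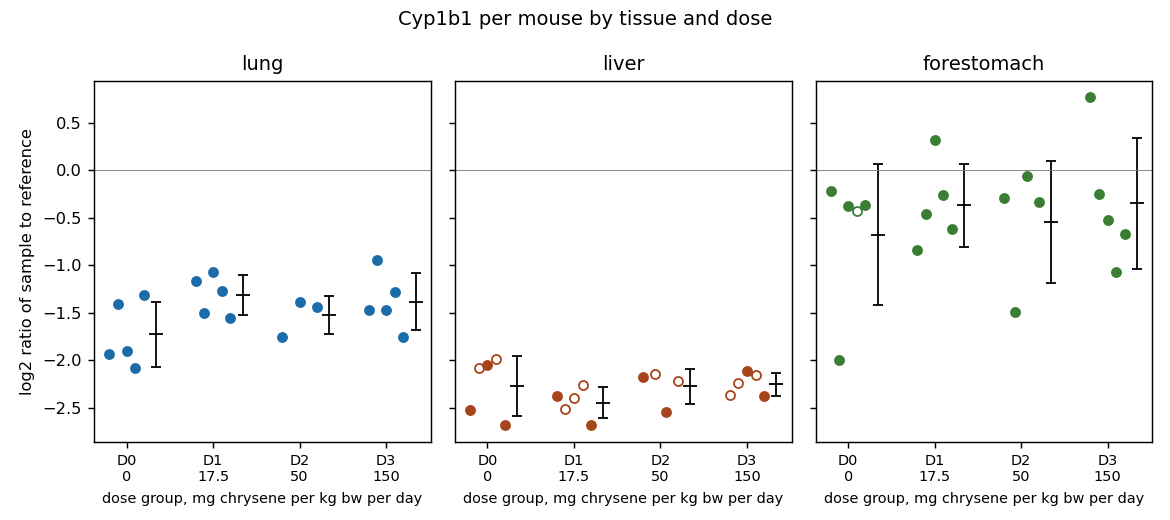
Cyp1b1 log2 ratio (vertical axis) of each mouse by dose group in lung, liver and forestomach, with filled points for Cy5 well above background, open points for the rest and the mean ± SD beside each group. Forestomach mice 16 and 8 are highest at 0.77 and 0.32, and D0 mouse 2 is lowest there at -1.998.

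Mice 16 and 8 were not high in all AhR targets in forestomach. Tiparp, an AhR-induced ADP-ribosyltransferase that dampens AhR, was highest in mouse 16 (log2 ratio 0.36) and in place 3 of 19 in mouse 8 (0.09). Nqo1, a quinone reductase shared by AhR and NRF2, took places 7 and 5 from the top in mice 16 and 8. Ahrr took places 4 and 15. The glandular stomach list means were 0.73 in mouse 16 and 5.74 in mouse 8, and their keratinocyte list means were 3.60 and 3.74. These ranks are a description, since the mice were singled out by their Cyp1a1 values.

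The next question was where each member is expressed without chrysene. The same probe was compared between the vehicle mice of 2 tissues in 1 limma fit of all 56 arrays, in which 46% of probes passed both limits between lung and liver, 37.6% between lung and forestomach and 41% between liver and forestomach, so that a call is common here. Cyp1a1 was highest in lung. Its log2 ratio there was higher by 1.29 than in liver, where 2 of 5 D0 arrays were above background (SE 0.50, limma adjusted p 0.0202). That call was lost without mouse 3, with adjusted p 0.101, and with Cy5 alone, with adjusted p 0.244. Against forestomach, where no D0 array was above background, the lung level is given as a bound alone, at least 1.29-fold higher in Cy5, and liver and forestomach were not set against each other.

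Cyp1b1 had the order forestomach, lung and liver. Lung was lower than forestomach by -1.05 (limma adjusted p 0.000533) and liver was lower than forestomach by -1.59 (limma adjusted p 6.95e-07), whereas lung and liver did not pass the threshold (0.54, SE 0.26, limma adjusted p 0.0622). Forestomach ratios differed between slides. Vehicle means were -1.18 on slide 1, -0.22 on slide 2 and -0.40 on slide 3, where the 95th percentile of Cy5 was 2412 to 6586 on slide 1, 501 to 1158 on slide 2 and 278.5 to 684 on slide 3. Raw Cy5 of Cyp1b1 in vehicle mice was 73 to 714 in forestomach, with 73 to 96 on slides 2 and 3, against 233 to 477.5 in lung. The part of the slide in this order was not tested. The order and the calls also depend on the scaling. With arrays centred on their medians instead of loess, lung minus forestomach turned to a call in the opposite direction (0.88, limma adjusted p 0.0319), and the call between liver and forestomach was lost (-0.92, limma adjusted p 0.0538). With Cy5 alone the call between lung and forestomach was lost (-0.42, adjusted p 0.0568). Lung was called higher than liver under 4 other scalings, by 0.68 to 1.80.

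Cyp1a2 was found in liver alone among the 3 tissues at this signal. Its Cy5 in vehicle mice ran from 3792 to 10883 in liver, 69 to 74 in lung and 63 to 74 in forestomach. As bounds in Cy5, the liver level was at least 66.4-fold over lung and at least 47.6-fold over forestomach, where no array was above background. These bounds depend on the scaling, and loess gave 150.4-fold and 144-fold. No difference of the ratio and no test is given, since the probe was measured in liver alone.

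The reference channel of the Cyp1a2 probe also differed between the tissues, although the same reference RNA was named for all arrays. Its Cy3 intensity was 581 to 1065 on liver arrays, 32 to 49 on lung arrays and 29.5 to 49 on forestomach arrays. Cy3 was well above background on all 19 liver arrays, 0 of 18 lung arrays and 0 of 19 forestomach arrays, so no fold is given. A gap in raw median Cy3 as large as that to lung was seen for 73 of 55681 probes (0.131%). Of these, 72 were higher on liver arrays like Cyp1a2, and all 72 were also brighter on liver than on lung arrays in Cy5. The liver to lung difference in the ratio is therefore smaller than that in Cy5. Whether signal of the sample channel reached the reference channel was not tested.

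**Figure D5:**
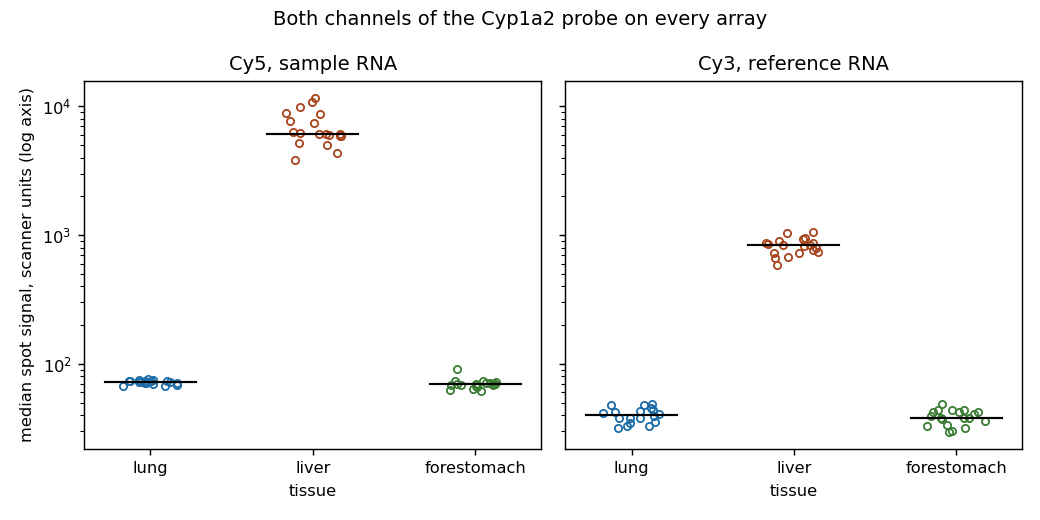
Cyp1a2 median signal intensity (vertical log axis) in the sample channel (Cy5) and the reference channel (Cy3) of each array, by tissue, with a bar at the median. Cy3 has a median of 834 on liver arrays, against 40 on lung and 38 on forestomach arrays, and Cy5 runs from 3792 to 11645 on liver arrays.

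Differences between tissues in the response itself were tested in the same fit. Cyp1b1 passed both limits in no pair, where the background was 0% (lung and liver), 0.0703% (lung and forestomach) and 0.084% (liver and forestomach) for the mean of doses and 0%, 0.703% and 0.0806% at D3. Nor did it reach an unadjusted p of 0.05 in any pair, as 3.02% and 5.24% of all probes did between lung and liver for the mean of doses and at D3, 9.28% and 12.9% between lung and forestomach, and 9.47% and 9.94% between liver and forestomach. Its differences were 0.37 between lung and liver, 0.06 between lung and forestomach and -0.31 between liver and forestomach. For Cyp1a1 no such difference is given. Vehicle forestomach measured it above background on 0 of 5 arrays, and the D1 and D2 livers on 0 of 5 and 0 of 4.

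Since all tissues came from the same mice, it was asked whether a mouse with a high value in 1 tissue was also high in another, after taking out the mean of its dose group. For Cyp1a1 this is not given, since it was above background on 3 of 19 liver and 4 of 19 forestomach arrays. For Cyp1b1, above background on 9 of 19 liver arrays, Pearson r was -0.11 (lung and liver, n = 18 mice, permutation p = 0.666), -0.02 (lung and forestomach, n = 18, permutation p = 0.943) and -0.33 (liver and forestomach, n = 19, permutation p = 0.168). Spearman's rho was -0.08 (permutation p = 0.746), 0.09 (permutation p = 0.726) and -0.35 (permutation p = 0.136). Adjusted over the 6 relations computed, these p values were 0.504 or higher for r and 0.408 or higher for rho. Within slides r was -0.62, 0.25 and -0.69 for the same pairs. Without the 2 mice farthest in the tissue named first, it was 0.16, -0.13 and -0.25.

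The other genes of the pathway were read from a list of 26: AhR and its partners, its repressor and feedback genes, its target enzymes, the electron donors of P450 enzymes, and enzymes that convert hydrocarbon metabolites further. Of these, 25 were tested in lung, 24 in liver and 25 in forestomach, and 0 rose and 0 fell past both limits of limma in any contrast. At an unadjusted p of at most 0.05, the lung at D3 had 2 higher and 3 lower of 24 genes, Ahrr left out, the liver 0 and 1 of 24, and the forestomach 1 and 3 of 25. Over all probes tested, 16.1%, 4.78% and 9.24% reached that p at D3 in the same order. The median log2 change of these genes at D3 was -0.03 in lung, -0.02 in liver and -0.01 in forestomach, against -0.03, -0.01 and -0.00 over all probes tested.

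Ahrr, the gene of the AhR repressor and itself an AhR target, was measured in dosed lungs and not well above background in vehicle lungs. It was well above background on 0 of 5 vehicle and 13 of 13 dosed arrays, with a faint Cy5 of 71 to 86 in vehicle and 97.5 to 134 in dosed lungs. Its log2 ratios were -0.77, -0.61, -0.85, -0.85 and -0.73 in D0 mice 1 to 5 and ran from -0.54 to -0.19 in the 13 dosed mice. As bounds, D1, D2 and D3 were at least 1.13-fold, 1.09-fold and 1.16-fold over D0. Since the probe was kept for testing only through its dosed arrays, no test of the difference is given. All vehicle lung arrays and no dosed ones lay in column 1 of their slides, so column and dosing cannot be told apart here. In liver Ahrr was too dim to test, and in forestomach its D3 change was 0.09 (SE 0.13, limma adjusted p 0.900).

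Ahr, the receptor, had its highest ratio in lung, at 1.78 ± 0.48 (SD, n = 5) in D0 mice against 0.88 ± 0.47 in liver and -0.16 ± 0.18 in forestomach. No test and no other scaling is given for this order. Its D3 differences were 0.22 in lung, -0.07 in liver and -0.09 in forestomach, none of which passed the test (limma adjusted p 0.659, 0.99979 and 0.884). Its partner Arnt had D3 values of -0.05, 0.06 and 0.11. Tiparp differed at D3 by -0.02 in lung (SE 0.078), 0.14 in liver (SE 0.12) and -0.02 in forestomach (SE 0.18).

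Nqo1 at D3 differed by 0.55 in lung (SE 0.20, limma adjusted p 0.221), -0.15 in liver (SE 0.12, adjusted p 0.99979) and -0.49 in forestomach (SE 0.44, adjusted p 0.808). The 2 highest lung values, -0.48 and -0.19, belonged to mice 17 and 19, whose lungs carried the skeletal muscle and keratinocyte signal, and vehicle forestomach had an Nqo1 ratio of 2.70 ± 0.77 (SD, n = 5) against -1.46 ± 0.25 in vehicle lung. The part of that other tissue in the lung value was not tested, and no test is given of Nqo1 between the vehicle tissues. Por, the reductase that feeds electrons to P450 enzymes, had D3 values of -0.04, 0.10 and -0.10 in lung, liver and forestomach. Ephx1, the microsomal epoxide hydrolase that acts between the P450 steps of hydrocarbon activation, had -0.10, -0.01 and 0.37, the last with a limma adjusted p of 0.604.

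The genes whose log2 ratios ran most like those of a member were listed by Pearson r across arrays, as a description without a test, since arrays of 1 tissue share most genes' levels. Over all 56 arrays, Cyp1a1 had no close match, with Ric1 (0.476), Cdkn2aipnl (0.474) and Akirin2 (0.471) nearest among 14836 genes. Since Cyp1a1 was above background on only 3 of 19 liver and 4 of 19 forestomach arrays, many of these values are background. Cyp1a2 ran with Apon, Dmgdh and F12 at 0.999 each, and F12 encodes coagulation factor XII, a liver product. Cyp1b1 ran with Numbl (0.913), Pdcl3 (0.912) and Abcc4 (0.910). Within the 18 lung arrays, Erlin1 (0.776), Asgr2 (0.774) and Ccdc12 (0.770) were nearest to Cyp1a1 and Zfp454 (0.744), Tigar (0.697) and Ankrd13b (0.680) to Cyp1b1. Prmt2 (0.832), Gulo (0.829) and Prag1 (0.827) were nearest to Cyp1a2 in the 19 liver arrays, and Ttc23 (0.818), Irak1bp1 (0.815) and Pdgfrl (0.812) to Cyp1b1 in the 19 forestomach arrays.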

How the data were processed

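RNA of each tissue was hybridised in Cy5 against a universal mouse reference RNA in Cy3 on 56 Agilent arrays, without dye swaps, so that dye bias cancels only between arrays. The deposited scanner files hold median intensity values and flags of 0 or 1 as quantified by Feature Extraction 10.7.3.1. The authors also deposited a table of log2 ratios (LOWESS on median signals, per the study's methods), which was used here as the measurement. Its correlation with ratios recomputed from the intensities was 0.977 to 0.998, and its column medians were -0.0456 to -0.0201. Probes were named through the RefSeq accessions of a GRCm38.p6 table, which named 26413 of 55681 probes (47.4%). The array's coordinates are in another build and were not used.

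Testing in a tissue needed a probe with Cy5 well above background on at least 3 arrays. limma 3.58.1 (R 4.3.3; lmFit, eBayes, 2-sided) compared dose groups, in place of the MAANOVA of the study's methods, with Benjamini-Hochberg adjustment over all probes tested. A call needed an adjusted p of at most 0.05 and a fold of at least 1.5. Contrasts were each dose, the mean of doses, D3 against D1 and a trend over dose step, and between tissues the vehicle levels and the dosing effects over probes passing in either tissue. Arrays carry no read depth, and their number limits the precision. Replicates were separate mice. On simulated lung D3 data (31496 probes), the test recovered 91% of log2 changes of 1 and 99% of log2 changes of 2. The simulated noise was independent between arrays, with the spread of each probe and no slide, column or background limit. These shares therefore need not hold for the measured arrays.

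Tissues with 1 mouse number came from the same animal. The correlation of same-mouse deviations had a median of 0.12 between lung and liver, 0.02 between lung and forestomach and 0.06 between liver and forestomach. Named were the members, the listed pathway genes past both limits, 7 pathway genes whatever their values, and the 3 genes most like a member. The members and lists were chosen with earlier results of these data known. Alternatives covered normalization, background (normexp, offset 50), the reference channel, the filter, slide, array weights, dose scale, mouse block, single mice and 2 sets of mice, and for bounds a second scaling of Cy5 chosen after seeing the data.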

Additional observations from a re-analysis of the deposited data

Results flagged for a closer look

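Single mice lay far from the rest of their group in 4 of the 26 groups of 4 or 5 mice examined, by a gap to the next value that exceeds Dixon's 95% limit; chance gives such a gap in about 1 in 20 groups, or 1.3 here. In lung, Cyp1a1 of D3 mouse 19 was low at 0.15, in one of the 2 lungs with skeletal muscle signal. In forestomach, Cyp1a1 of D1 mouse 8 was high at 3.58 and that of D3 mouse 16 at 4.77. Forestomach Cyp1b1 of D0 mouse 2 was low at -1.998, on an array with a glandular stomach list mean of 7.01.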

How the results depend on the processing

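No member was called in any within-tissue contrast or dosing difference between tissues under any alternative, nor with any mouse left out. Lung Cyp1a1 for the mean of doses ran from -1.15 to -1.01 over the alternatives (limma adjusted p 0.0782 to 0.123) and from -1.22 to -0.75 with single mice left out. Of 465 single-gene values under other alternatives, 430 kept direction and call, 27 turned direction, 4 gained and 4 lost a call. With single mice left out these were 1106, 57, 1 and 2 of 1166. Median centring moved the median of all probes by up to 0.22 in lung (D1) and 0.18 in forestomach (D3). The mouse block changed no call (Cyp1b1 dosing effect, lung minus liver, 0.39). Each member had 1 probe, so other probes could not be tried, and leaving out mice 8 and 16 was chosen after seeing the data.

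Some differences turned sign, most of them near 0. Values of Cyp1a1 in forestomach and of Cyp1a1 in liver rest on groups with few or no arrays above background and are no sizes of a change. Their turns of sign are therefore named without values. In liver, Cyp1a2 at D2 was -0.026 with median centring and -0.034 with slide as a block, at D3 0.080 with normexp, 0.047 with Cy5 alone and 0.013 with array weights, for the mean of doses -0.014 with slide, and for the trend 0.068, 0.065 and 0.016 with normexp, Cy5 alone and array weights. Liver Cyp1b1 at D3 was -0.0413, -0.091, -0.018, -0.045 and -0.048 with median centring, normexp, Cy5 alone, slide and array weights, and its trend -0.0083, -0.044 and -0.00537 with median centring, normexp and slide. Forestomach Cyp1a1 at D2 was -0.033 with median centring and -0.020 with slide, and D3 against D1 -0.016 with Cy5 alone. Forestomach Cyp1b1 for D3 against D1 was -0.086 without mice 8 and 16. For Cyp1b1 in lung minus forestomach, the dosing effect was -0.17 with Cy5 alone, the D3 effect -0.037, -0.23 and -0.17 with median centring, Cy5 alone and lung without mice 17 and 19, and the vehicle level 0.88 with median centring. The vehicle level of Cyp1a1 in liver minus forestomach was -0.010 with Cy5 alone. The cause was not tested.

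With single mice left out, lung Cyp1b1 for D3 against D1 ran from -0.18 to 0.024. Liver Cyp1a2 ran from -0.00098 to 0.075 at D1, -0.057 to 0.095 at D2, -0.045 to 0.039 at D3, -0.021 to 0.045 for the mean of doses and -0.047 to 0.030 for the trend. Liver Cyp1b1 ran from -0.11 to 0.084 at D2, -0.088 to 0.086 at D3, -0.16 to 0.014 for the mean of doses and -0.0061 to 0.14 for the trend, and liver Cyp1a1 from -0.044 to 0.13 for D3 against D1. Forestomach Cyp1a1 ran from -0.065 to 0.17 at D2, -0.0052 to 1.01 for the trend and -0.56 to 0.98 for D3 against D1. Forestomach Cyp1b1 ran from -0.021 to 0.43 at D1, -0.20 to 0.45 at D2, -0.00082 to 0.51 at D3, -0.073 to 0.37 for the mean of doses, -0.039 to 0.41 for the trend and -0.26 to 0.20 for D3 against D1. The Cyp1b1 effect ran from -0.11 to 0.47 (mean of doses) and -0.19 to 0.42 (D3) in lung minus forestomach, and from -0.49 to 0.063 and -0.52 to 0.063 in liver minus forestomach.

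Of vehicle levels (Cyp1a2 counted, although measured in liver alone), 2 members were called in lung minus liver, 3 with own loess, median centring, normexp or without D0 mouse 4, and 1 without D0 mouse 3. In lung minus forestomach 0 were called with Cy5 alone and 1 without mouse 3, and in liver minus forestomach 1 with median centring. Lung minus liver Cyp1b1 was 0.77 with own loess, 1.80 with median centring, 0.68 with normexp, 0.87 with Cy5 alone and 0.70 without mouse 4. In the pathway list, array weights gave 1 gene for the forestomach trend, Gsta4 (-0.68, SE 0.15, limma adjusted p 0.0382).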
